A study of Mus musculus with 60 samples.

Results

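Mediator is the large coactivator complex that carries signals from DNA-bound transcription factors to RNA polymerase II. Its head and middle modules contact the polymerase, its tail module meets activators at enhancers, and Med14 runs along the core as the scaffold. A separable kinase module (Med12, Med13, cyclin C and Cdk8 or Cdk19) binds the core reversibly and keeps it off the polymerase. In embryonic stem cells Mediator is known for its high occupancy at enhancers of pluripotency genes, where it works with cohesin and the cohesin loader Nipbl. The genes described here are 32 mouse subunit genes taken from a list of names, which includes the kinase module paralogs Med12l and Cdk19 but not Med13l. Of these, 31 had a row in the deposited files, out of 24260 gene symbols in all. No row carried a RefSeq accession listed for Med6, so Med6 was not measured here. For each symbol the transcript with the highest RPKM (the reads of a gene divided by its length and by the depth of the library) summed over the 4 libraries stood for the gene.

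The libraries hold nascent RNA from E14 mouse embryonic stem cells grown in serum with LIF. One pair was made from cells given a control siRNA (siCtrl) and the other pair from cells given an siRNA against Esrrb (siEsrrb), an orphan nuclear receptor of the pluripotency network, in each case 72 h earlier with Lipofectamine RNAiMAX. The cytoplasm and the nucleoplasm were removed and the RNA came from the remaining chromatin, so it is rich in transcripts still attached to the polymerase. The other 56 samples of the series, which include ChIP-seq of Med1, Med12 and Med26, were not analysed here.

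Library depth, as the total behind the RPKM values, was 24764879 and 68002338 reads in siCtrl replicates 1 and 2 and 22363943 and 61857158 reads in siEsrrb replicates 1 and 2. The series text does not state that the nascent RNA libraries are biological duplicates, so every p-value here measures the spread between these libraries, which may be technical. Esrrb RNA itself was at 3.39 and 3.10 RPKM in siCtrl and at 1.50 and 2.08 RPKM in siEsrrb (log2 fold change -0.72, SE 0.15, limma adjusted p = 0.281), which is 44.2% and 67.0% of the control of the same replicate number. The 5 stem cell markers summed to between 53.4 and 64.3 RPKM per library, against at most 0.675 RPKM for 6 fibroblast markers, 0.141 RPKM for 4 endoderm markers and 0.305 RPKM for 3 mesoderm markers, and Lum was at 0 in every library. The 3 neural markers summed to between 1.86 and 2.60 RPKM. Of the stem cell markers, Esrrb, Zfp42 and Nanog were lower in both siEsrrb libraries and Pou5f1 was higher, and the part of these marker differences in the values below was not tested. In bulk RNA, fewer cells of a type and less RNA per cell cannot be told apart.

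RPKM values in the text are the deposited values times a scaling factor per library, between 0.925 and 1.09, which brings the typical gene to the same level in all libraries. Where the lower library of one group lies above the higher library of the other, the gene is said to be apart. Fold changes are on the scale of log2(RPKM + 0.5), which understates the change of low genes. limma was fitted across the 9758 genes with a mean deposited RPKM of at least 0.5. None of the 9758 genes passed an adjusted p of 0.05 (0%), and the smallest adjusted p was 0.247. At an unadjusted p under 0.05 the fit held 1098 genes, 11.3% of those tested, and limma-voom on recovered reads held 1189 with none past the adjusted threshold. An exact permutation test of 2 libraries against 2 cannot go below p = 0.33.

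Mediator genes lay on both sides of the typical gene, which the scaling sets near 0. Of 28 tested members none passed the adjusted test. An unadjusted limma p under 0.05 was found for 2 of the 28, Med21 (lower) and Med14 (higher), beside 11.3% of all genes tested. The median log2 fold change of the 28 members was -0.0049, beside -0.0010 for all genes tested, where the scaling fixes it. Within 0.1 of no change lay 16 of the 28 members (57.1%), beside 49.5% of all genes. Both siEsrrb libraries were higher for 5 members, Med7, Med11, Med13, Med14 and Med24, where 21.8% of all genes tested were apart in that direction. Both were lower for 11 members, Med1, Med10, Med15, Med20, Med21, Med23, Med26, Med28, Ccnc, Cdk8 and Cdk19, where 22% of all genes tested were apart. The other 12 tested members overlapped between the groups. Leaving out 1 library moved the fold change of 24 of the 28 members by over 1.5 times or changed its sign. The exceptions were Med7, Med14, Med15 and Med21. For members within 0.1 of no change such a move is small in size, and the same count was not made over all genes tested.

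**Figure D1:**
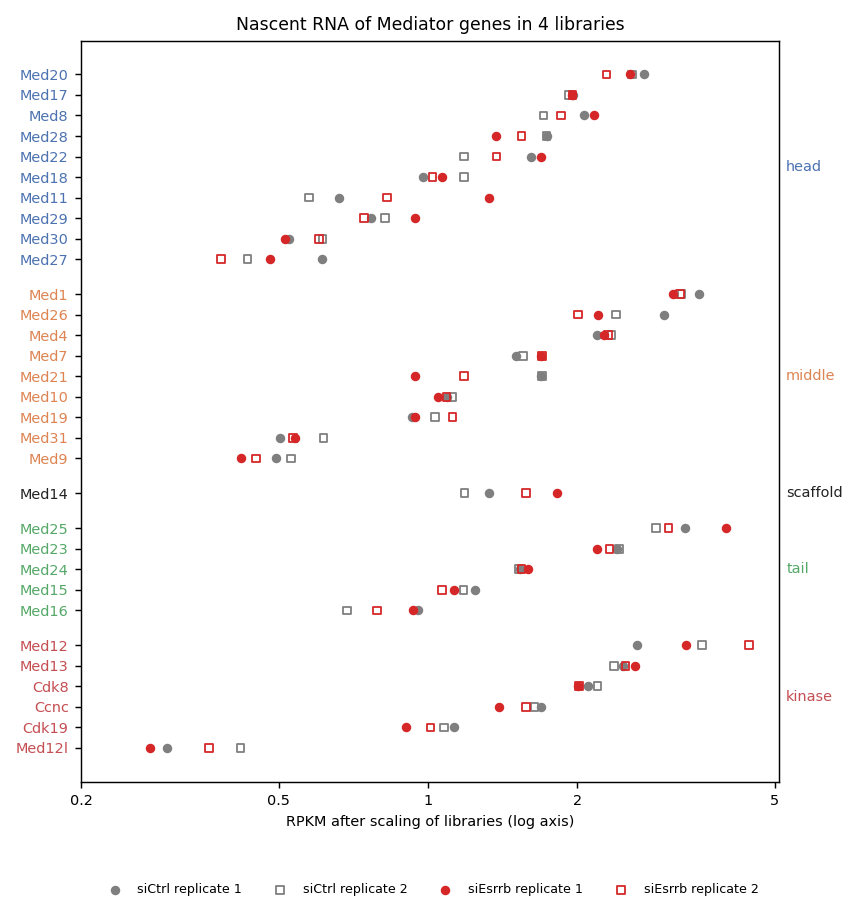
Scaled RPKM (log axis) of the 31 measured Mediator genes, grouped by module and ordered by mean level. Grey symbols are siCtrl and red symbols siEsrrb, filled for replicate 1 and open for replicate 2. Most members lie between 0.5 and 4 RPKM and the symbols of the groups sit close together, with the red pair of Med14 and Med11 to the right and that of Med21 to the left of the grey pair.

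The levels spanned about 1 order of magnitude. Med12 had the highest mean deposited RPKM, 3.53, followed by Med25 at 3.29 and Med1 at 3.28. Med20, Med13 and Med26 came next at 2.54, 2.49 and 2.39. The lowest measured member was Med12l at 0.343, and Med27 (0.474) and Med9 (0.476) were also under the minimum for the test. Med12 and Med1 were not separated by their spread, and Med1, Med25, Med26 and Med20 were above Med12 in siCtrl replicate 1: Med12 ran from 2.64 to 4.44 scaled RPKM over the libraries and Med1 from 3.12 to 3.52. The median tested member was at 1.56 RPKM and the median gene tested at 1.62.

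The middle module links head and tail and carries the subunits best known for binding nuclear receptors (Med1) and elongation factors (Med26). It held the member with the lowest p. Med21, which pairs with Med7 in a helical hinge of the middle module, was at 1.69 and 1.70 RPKM in siCtrl and at 0.939 and 1.18 RPKM in siEsrrb. The control libraries nearly coincided and both knockdown libraries lay well below them, at 55.6% and 69.5% of the control with the same number. The fitted log2 fold change was -0.50 (SE 0.10, limma unadjusted p = 0.0062, adjusted p = 0.281, 2 libraries a group), with -0.61 in replicate 1 and -0.39 in replicate 2.

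The value of Med21 depends on how reads inside its span were counted. Med21's counted span is 8022 bases, and in the annotation GRCm38.p6 a transcribed pseudogene, Gm6654, lies within the gene. Med21 held 320, 1002, 155 and 618 reads in siCtrl 1, siCtrl 2, siEsrrb 1 and siEsrrb 2, and Gm6654 held 93, 348, 129 and 327. Gm6654 reads therefore equalled 29.1% and 34.7% of Med21's in siCtrl and 83.2% and 52.9% in siEsrrb, and Gm6654 itself had a log2 fold change of 0.35 (SE 0.17, limma adjusted p = 0.523). If its reads were counted in both genes, the remaining 7396 bases of Med21 held 227, 654, 26 and 291 reads, which is 1.30 and 1.20 RPKM in siCtrl and 0.171 and 0.603 RPKM in siEsrrb. On those reads the log2 fold change was -1.03 (SE 0.26, limma adjusted p = 0.338), with -1.42 and -0.63 in the replicates. The siEsrrb 1 value there rests on 26 reads, and no counting interval was computed for it. Whether the reads of Gm6654 are part of Med21's value is not given in the sources used here, and the direction was the same either way.

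How nested genes were counted can be seen in part from other genes. Of 79 genes with at least 20 reads that lie inside another gene on the same strand in RefSeq's tables, none had more reads than the outer gene in any library. Of 62 such genes on the opposite strand, 12 did. An inner gene with more reads than the outer one cannot have all its reads in the outer gene's value. The strand of Gm6654 relative to Med21 is not given here, so these counts do not settle how its reads were counted. For the members, 19 of 32 annotated spans overlap another gene, 8 of them a protein-coding one.

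The genes beside Med21 had negative fold changes of smaller size. Tm7sf3, on one side, was at 1.88 and 2.49 RPKM in siCtrl and 1.28 and 2.02 RPKM in siEsrrb (log2 fold change -0.33, limma adjusted p = 0.623), so its groups overlapped. Stk38l, on the other side, was apart and lower at -0.10 (limma adjusted p = 0.690).

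Med26, the middle subunit that meets the elongation factors of the ELL and EAF families, was at 2.99 and 2.39 RPKM in siCtrl and 2.20 and 2.01 RPKM in siEsrrb. Both knockdown libraries were below both controls, though the control libraries differed by more than siCtrl 2 and siEsrrb 1 did. Its log2 fold change was -0.29 (SE 0.12, limma adjusted p = 0.492), with -0.37 and -0.20 in the replicates. It was -0.15 without siCtrl replicate 1 and -0.42 without siCtrl replicate 2. Med1, the largest middle subunit and the one that binds nuclear receptors through LXXLL motifs, was at 3.52 and 3.24 RPKM in siCtrl and 3.12 and 3.22 RPKM in siEsrrb. The lower control and the higher knockdown library nearly coincided, and the log2 fold change was -0.08 (SE 0.08, limma adjusted p = 0.767), from -0.15 in replicate 1 to -0.01 in replicate 2.

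The rest of the middle module had smaller fold changes. Med7, the hinge partner of Med21, was slightly higher in siEsrrb (log2 fold change 0.11, SE 0.06, limma adjusted p = 0.575), opposite in sign to Med21. Med10, a small core subunit near the hook that binds the polymerase, stood at -0.03, Med4, which pairs with Med9, at 0.01, Med31 at -0.03 and Med19, also of the hook, at 0.05. Med9 was under the minimum, at 0.494 and 0.529 RPKM in siCtrl and 0.419 and 0.450 RPKM in siEsrrb. Over the 8 tested middle genes the median was -0.031. Of these 1 was apart and higher and 4 apart and lower, beside 21.8% and 22% of all genes tested.

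Med14, the scaffold that joins head, middle and tail, was the member with the other unadjusted p under 0.05. It was at 1.32 and 1.18 RPKM in siCtrl and at 1.82 and 1.58 RPKM in siEsrrb, from 2708 to 8920 reads per library. Both knockdown libraries were above both controls, at 138% and 133% of the control with the same number. The log2 fold change was 0.33 (SE 0.09, limma unadjusted p = 0.021, adjusted p = 0.362), with 0.35 and 0.30 in the replicates. The other Med14 transcript in the files gave 0.34. The nearest tested genes lay at 0.07 (1810030O07Rik) and 0.02 (5730405O15Rik), with limma adjusted p of 0.698 and 0.987. Gm14634, a lncRNA that overlaps Med14, was under the minimum for the test, at 0.0859 and 0.0992 RPKM in siCtrl and 0.112 and 0.132 RPKM in siEsrrb, or 131% and 133% of control.

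**Figure D2:**
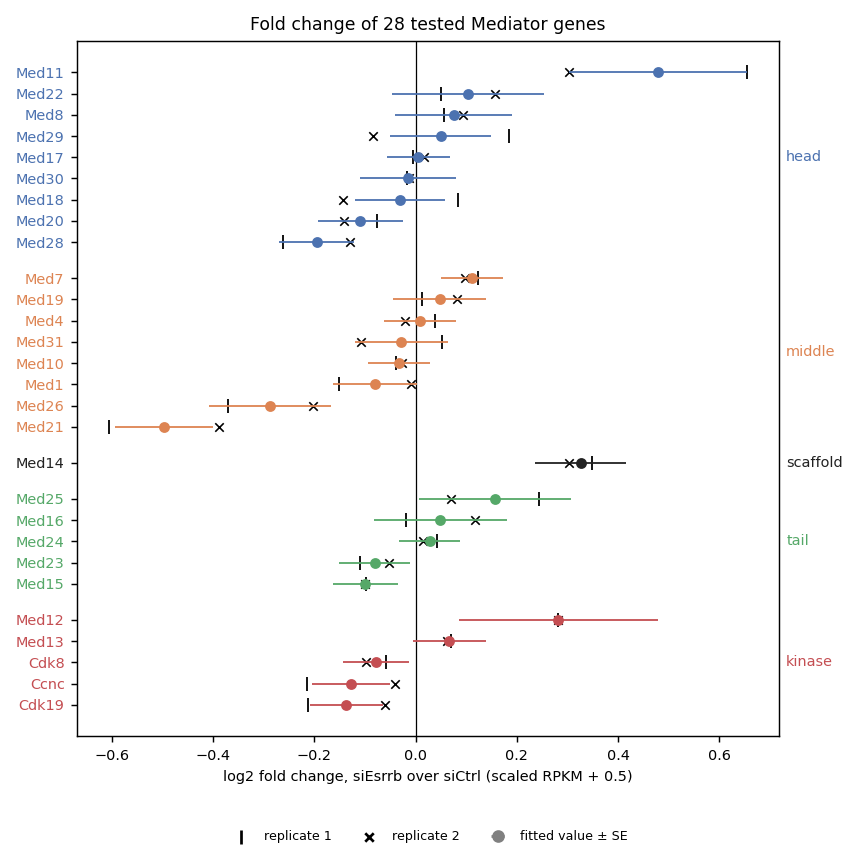
Log2 fold change (siEsrrb over siCtrl, scaled RPKM + 0.5) of the 28 tested Mediator genes by module. Dots with bars are the limma value ± SE, vertical ticks are replicate 1 and crosses replicate 2. Med21 at -0.50 and Med11 at 0.48 are the ends of the range. Within each module except the scaffold, which is Med14 alone, members lie on both sides of 0.

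Of the head module, which docks on the polymerase and the general initiation factors, 9 genes were tested, with a median of 0.0055. Med11, which pairs with Med22 in the head, was at 0.661 and 0.575 RPKM in siCtrl and 1.33 and 0.828 RPKM in siEsrrb. The groups did not overlap, yet the siEsrrb libraries differed from each other by more than the lower one differed from the controls. The log2 fold change was 0.48 (SE 0.18, limma adjusted p = 0.445), with 0.65 in replicate 1 and 0.30 in replicate 2. It was 0.25 without siEsrrb replicate 1 and 0.70 without siEsrrb replicate 2. Med11 has the fewest reads of the tested members, over a counted span of 1796 bases: 28 and 76 in siCtrl and 49 and 97 in siEsrrb. The 28 reads carry an exact 95% Poisson interval of 18.6 to 40.5, which covers counting error only. Its neighbour Psmb6, also higher in both siEsrrb libraries, had a log2 fold change of 0.18 (limma adjusted p = 0.599). Arrb2, on the other side, stood at -0.02 with overlapping groups (limma adjusted p = 0.926).

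Med28 was lower in both siEsrrb libraries, at 1.37 and 1.54 RPKM against 1.74 and 1.73 RPKM in siCtrl (log2 fold change -0.20, SE 0.07, limma adjusted p = 0.454). Med20, which forms the movable jaw of the head with Med18, was lower at -0.11, while Med18 itself stood at -0.03 with replicates of opposite sign (0.08 and -0.14). Med22, the partner of Med11, stood at 0.10, and Med8, which tethers the Med18 and Med20 pair, at 0.08, both with overlapping groups. Med17, the central head subunit, was at 1.96 and 1.93 RPKM in siCtrl and 1.95 and 1.95 RPKM in siEsrrb, the closest to no change of all members (0.0055, SE 0.06). Med29 and Med30 stood at 0.05 and -0.02. Med27 was under the minimum, at 0.610 and 0.433 RPKM in siCtrl and 0.480 and 0.382 RPKM in siEsrrb. Med27 to Med30 are placed in the head by some accounts and in the upper tail by others. With these counted in the tail, the head median was 0.040 and the tail median 0.0064.

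The tail module, the main landing site of activators, held 5 tested genes with a median of 0.028. Med25, a target of activators with acidic domains, stood at 0.16 (SE 0.15, limma adjusted p = 0.745), at 3.29 and 2.88 RPKM in siCtrl and 3.99 and 3.05 RPKM in siEsrrb, with overlapping groups. Med15, which binds several activator families, had nearly the same fold change in both replicates (-0.10 and -0.10) and was apart and lower. Med23, a target of Ras-pathway ETS factors, was apart and lower at -0.08. Med24 was apart and higher at 0.03, and Med16 stood at 0.05 with overlapping groups. None of the 5 had a limma adjusted p under 0.623.

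The kinase module had a median of -0.078 over 5 tested genes. Of these 1 was apart and higher and 3 apart and lower, beside 21.8% and 22% of all genes tested. Med12, which activates the cyclin C kinase, was at 2.64 and 3.56 RPKM in siCtrl and 3.32 and 4.44 RPKM in siEsrrb. Within each replicate number siEsrrb was higher by the same amount (0.28 and 0.28, or 126% and 125% of control), but siCtrl 2 was above siEsrrb 1, so the groups overlapped. The fitted log2 fold change was 0.28 (SE 0.20, limma adjusted p = 0.647). The control libraries differed from each other by a log2 ratio of 0.43 (without the added 0.5), more than the fitted effect. The siEsrrb libraries differed in the same direction. With a term for replicate number in the fit, the SE was 0.048 (limma adjusted p = 0.117), but whether the numbers pair the samples is not stated. The fold change was 0.094 without siCtrl replicate 1 or without siEsrrb replicate 2, and 0.47 without either of the other libraries.

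The neighbours of Med12 on the chromosome had fold changes of opposite sign. They were chosen after their values were seen. Foxo4, on one side, was at 1.10 and 1.05 RPKM in siCtrl and 1.49 and 1.50 RPKM in siEsrrb (log2 fold change 0.35, SE 0.06, limma adjusted p = 0.253). Zmym3, on the other side, was at 2.58 and 2.80 RPKM in siCtrl and 1.07 and 1.46 RPKM in siEsrrb (log2 fold change -0.86, SE 0.13, limma adjusted p = 0.247). The fold change of Zmym3, which encodes a zinc finger protein, was larger than that of any Mediator gene in the same fit.

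The paralogs of the kinase module are alternative subunits, of which a single complex holds one. Cdk8, the main Mediator kinase, was at 2.10 and 2.20 RPKM in siCtrl and 2.00 and 2.02 RPKM in siEsrrb (log2 fold change -0.08, SE 0.07, limma adjusted p = 0.710). Its paralog Cdk19 was at 1.13 and 1.08 RPKM in siCtrl and 0.904 and 1.01 RPKM in siEsrrb (log2 fold change -0.14, SE 0.07, limma adjusted p = 0.561). Both kinases were apart and lower, and Cdk8 was above Cdk19 in all 4 libraries. Ccnc, their cyclin partner, was apart and lower too, at 1.69 and 1.64 RPKM against 1.39 and 1.58 RPKM (log2 fold change -0.13, SE 0.08, limma adjusted p = 0.602).

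Med12l, the paralog of Med12, was at 0.298 and 0.419 RPKM in siCtrl and 0.275 and 0.362 RPKM in siEsrrb, far under Med12 in every library. Its span overlaps Igsf10 and several purinergic receptor genes, of which Igsf10 alone had more than 20 reads in all. Igsf10, under the minimum for the test, was higher in both siEsrrb libraries, at 169% and 135% of control. Med13, which links the kinase module to the core and is a target of the ubiquitin ligase subunit Fbxw7, was at 2.47 and 2.37 RPKM in siCtrl and 2.62 and 2.50 RPKM in siEsrrb (log2 fold change 0.07, SE 0.07, limma adjusted p = 0.780). Its paralog Med13l, outside the list of members, was at 2.41 and 1.94 RPKM in siCtrl and 1.89 and 1.65 RPKM in siEsrrb. Both siEsrrb libraries of Med13l were lower (log2 fold change -0.23, SE 0.12, limma adjusted p = 0.554), so Med13 and Med13l were apart in opposite directions. The difference between paralogs was not tested.

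**Figure D3:**
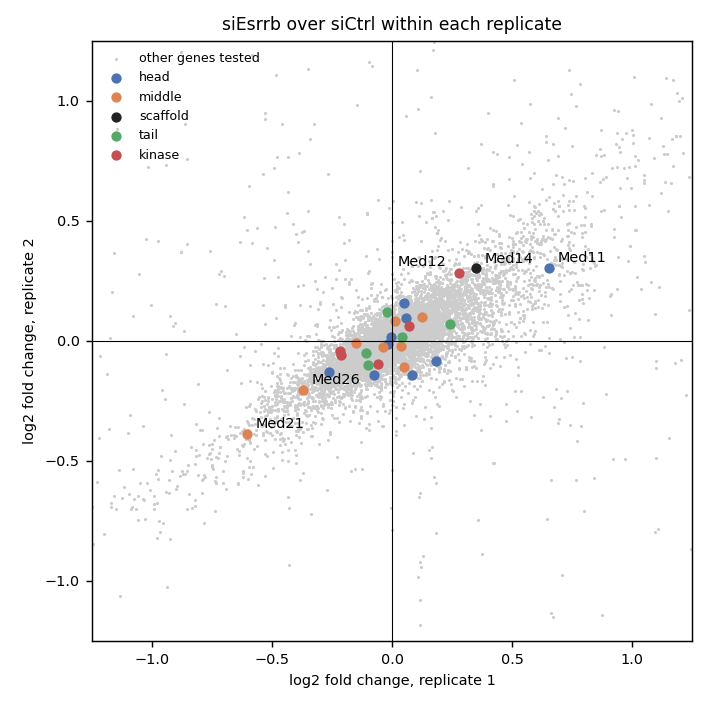
Log2 fold change of siEsrrb over siCtrl in replicate 1 (x axis) and replicate 2 (y axis), with the tested Mediator genes coloured by module over the 9730 other genes tested in grey. Of the grey points 220 lie beyond the axes. Most Mediator genes sit in the central cloud, and Med21, Med26, Med12, Med14 and Med11 lie furthest along the diagonal.

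Med12 and Med14 are the X-linked members, with fold changes next below that of Med11. Among 303 tested genes of the X chromosome, 26.4% were apart and higher and 13.9% apart and lower, beside 21.8% and 22% of all genes tested. Their median log2 fold change was 0.027, beside -0.0010 for all genes tested. Med14 was apart and higher, while the groups of Med12 overlapped. A part of the chromosome in these fold changes was not tested. Without Med12 and Med14 the median of the remaining 26 members was -0.022. Replicates gave opposite signs for 6 of the 28 members (21.4%), beside 22.5% of all genes tested. The gap between the replicates' fold changes was wider for members with fewer reads: its median was 0.12 for the 14 members with 250 to 3578 reads in all and 0.05 for the 14 with 5845 to 41322. Among the better covered members the widest gaps were those of Ccnc (0.17), Med25 (0.17), Med26 (0.17) and Cdk19 (0.15).

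**Figure D4:**
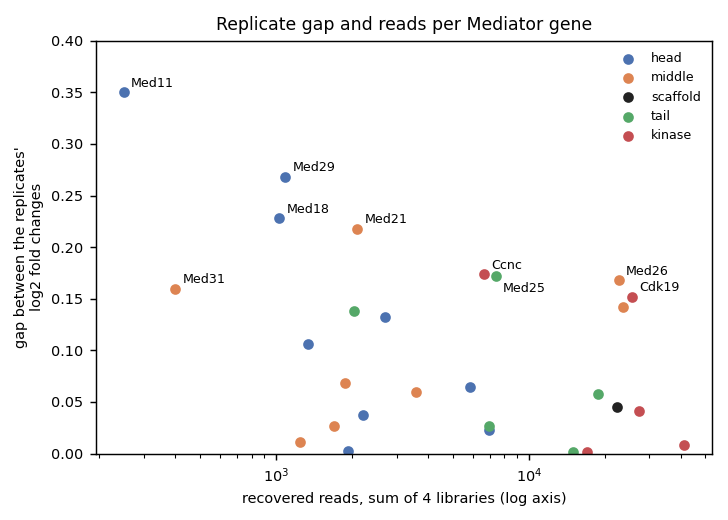
Absolute gap between the log2 fold changes of replicates 1 and 2 (y axis) against reads summed over the 4 libraries (x axis, log scale), 1 point per tested Mediator gene. Med11, with 250 reads, has the widest gap at 0.35, and Med13, with 41322 reads, has a gap of 0.0081.

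The start regions of 27 members are in RefSeq's promoter table (GRCm38.p6, 250 bases before to 50 after the start). They were searched on both strands for TCAAGGTCA, the full Esrrb motif, for AAGGTCA, the core within it shared by other nuclear receptors, for CCGGAAG (ETS factors), GCATGCGC (NRF1) and AAGATGGC (YY1). TCAAGGTCA was in none of the 27, beside 0.466% of 27025 genes and 0.317% of the 7257 tested genes with a promoter. AAGGTCA was in 1, Med27 (3.7%), beside 3.67% of tested genes. CCGGAAG was in 8 members (29.6%), Med4, Med6, Med10, Med14, Med15, Med17, Med18 and Med19, beside 23.7% of tested genes and 9.93% of all genes. GCATGCGC was in 3 (11.1%), Med4, Med15 and Med17, beside 6.86% of tested genes. AAGATGGC was in 1, Med31, beside 6.39% of tested genes. A match is a run of letters and was not tested as a binding site.

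The 250 bases before the start are given for Med21 (chr6:146642329-146642578, plus strand), Med26 (chr8:72548311-72548560, minus strand) and Med14 (chrX:12761974-12762223, minus strand), the ChIP-mapped or unadjusted p-selected members with the larger fold changes. They are followed by Med4 (chr14:73509799-73510048, plus strand) and Med17 (chr9:15279907-15280156, minus strand), which hold the CCGGAAG and GCATGCGC letters together, as does Med15 (log2 fold change -0.10, not shown), and lay at 0.01 and 0.0055 in log2 fold change. All are written 5' to 3' on the gene's strand in GRCm38.p6 with motif matches in capitals; Med21 and Med26 have none in this stretch.
Med21: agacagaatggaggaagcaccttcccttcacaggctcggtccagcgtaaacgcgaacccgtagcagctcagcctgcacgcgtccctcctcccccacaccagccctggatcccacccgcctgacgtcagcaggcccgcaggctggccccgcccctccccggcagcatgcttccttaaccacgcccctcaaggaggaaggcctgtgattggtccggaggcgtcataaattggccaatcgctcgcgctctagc
Med26: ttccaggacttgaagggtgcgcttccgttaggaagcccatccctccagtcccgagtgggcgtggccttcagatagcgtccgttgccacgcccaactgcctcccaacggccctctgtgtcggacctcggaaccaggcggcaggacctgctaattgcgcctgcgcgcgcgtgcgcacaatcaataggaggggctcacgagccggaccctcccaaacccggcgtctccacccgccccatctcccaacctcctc
Med14: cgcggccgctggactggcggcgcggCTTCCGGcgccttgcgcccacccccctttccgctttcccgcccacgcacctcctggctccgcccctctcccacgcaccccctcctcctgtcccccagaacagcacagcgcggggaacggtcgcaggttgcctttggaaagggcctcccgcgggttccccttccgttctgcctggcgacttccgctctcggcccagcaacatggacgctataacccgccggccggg
Med4: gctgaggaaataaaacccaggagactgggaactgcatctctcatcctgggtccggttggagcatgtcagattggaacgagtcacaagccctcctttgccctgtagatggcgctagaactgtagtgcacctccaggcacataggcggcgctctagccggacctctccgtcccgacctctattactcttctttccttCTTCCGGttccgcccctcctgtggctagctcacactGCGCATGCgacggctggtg
Med17: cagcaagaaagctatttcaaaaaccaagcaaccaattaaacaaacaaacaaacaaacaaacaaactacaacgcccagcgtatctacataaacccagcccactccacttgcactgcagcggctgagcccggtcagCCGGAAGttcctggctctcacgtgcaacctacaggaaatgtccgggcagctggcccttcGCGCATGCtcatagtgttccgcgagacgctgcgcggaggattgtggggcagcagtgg

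Genes that work with Mediator were read from the same fit: Med13l, elongation complex genes, cohesin and its loader, the basal machinery with its kinase, and coactivators with Fbxw7, 27 in all and 25 tested. None passed the adjusted test. Their median log2 fold change was -0.042, with 5 apart and higher and 8 apart and lower, and 3 had an unadjusted p under 0.05, beside 21.8%, 22% and 11.3% of all genes tested. Stag2, a cohesin subunit on the X chromosome, was at 1.04 and 1.14 RPKM in siCtrl and 1.85 and 1.85 RPKM in siEsrrb (log2 fold change 0.57, SE 0.07, limma adjusted p = 0.247). Rad21, the cohesin kleisin, was lower at 4.19 and 4.49 RPKM against 5.32 and 5.14 RPKM (log2 fold change -0.24, SE 0.09, limma adjusted p = 0.443). Of the 7 cohesin genes 3 were apart and higher and 2 apart and lower, beside 21.8% and 22% of all genes tested.

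Ell2, an elongation factor of the complex that Med26 recruits, was at 0.985 and 0.933 RPKM in siCtrl and 1.22 and 1.14 RPKM in siEsrrb (log2 fold change 0.20, SE 0.07, limma adjusted p = 0.412). Med26 and Ell2 were apart in opposite directions. Of the 7 tested elongation genes 1 was apart and higher and 3 apart and lower, beside 21.8% and 22% of all genes tested. All 6 genes of the basal machinery and its kinase, Gtf2b, Taf2, Polr2a, Cdk7, Ccnh and Mnat1, lay within 0.1 of no change. Among all genes tested 49.5% did so. Of the 6, 1 was apart and lower, Cdk7, beside 22% of all genes tested. The coactivator list of 4 genes had 1 apart and higher (Ep300, 0.07) and 1 apart and lower (Ncoa3, -0.29, limma adjusted p = 0.496). Here too the shares of all genes tested were 21.8% and 22%.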

How the data were processed

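Nascent RNA-seq was analysed in 4 libraries, 2 siCtrl and 2 siEsrrb. The authors deposited 1 RPKM value per RefSeq transcript and library, for 34929 transcripts. The submitters' processing notes name CASAVA 1.4, TopHat2 and build mm9 for all 4 libraries, and Bowtie 1.1.1 and Bowtie2 besides for replicate 1; no source used here gives the counting program or the use of strand. Titles number the second pair of libraries only.

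Symbols from the annotation GRCm38.p6 were found for 34631 transcripts, and the other 298 were left out. For 71.4% of 15789 single-transcript genes the counted length was within 1% of the annotated span, introns included. Whole reads were recovered from the RPKM for 31770 of 31771 transcripts above 0 (within 0.001 of a read), which gave depth and counting error.

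Libraries were scaled by median of ratios, and limma 3.58.1 (R 4.3.3, trended eBayes, two-sided, Benjamini-Hochberg over 9758 genes) was fitted on log2(RPKM + 0.5) with no replicate term. Named were all members; values in every library were given for members and partner genes with an unadjusted p under 0.05, the ChIP-mapped subunits, the scaffold and paralogs. Med11, Med17, Med25, Med28 and Ccnc, given so too, were chosen after their values were seen, and Med9 and Med27 were under the minimum. The members, modules and lists were chosen with earlier results of these data known.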

Additional observations from a re-analysis of the deposited data

How the results depend on the processing

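Of 401 recomputed member fold changes under 15 alternatives (pseudocount 0.1 or 1 RPKM, other filters, scalings, transcripts and models, 1 library left out), 372 kept their sign and side of the threshold, 6 came to pass it and 23 changed sign; 16 members kept their sign throughout. No member passed the adjusted test in any fit except limma-voom on recovered reads with a replicate block. There 2765 of 9758 genes and 6 of 28 members passed (Med11, Med12 and Med14 higher, Med21, Med26 and Cdk19 lower), so the members were not called more often than genes at large. The replicate block on log2 RPKM passed 0 genes and voom without the block 0. With the block on log2 RPKM, 2557 genes had an unadjusted limma p under 0.05, beside 1098 in the main fit. The smallest limma adjusted p was then 0.081, beside 0.247. Whether the numbers pair the samples is not stated: over 9758 genes the deviations of same-numbered libraries correlated at r = 0.386, and these libraries also share depth and named tools. Leaving out 1 library gave 0 to 6 genes (2 without siCtrl replicate 1, 6 without siEsrrb replicate 2). With fewer libraries to separate, it also gave 8 to 10 members higher and 11 to 15 lower, beside 33.7% to 37.2% and 32% to 40% of all genes tested.

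With a mean RPKM of at least 2, only 9 members were tested. Of these 1 was higher and 5 lower, beside 24.4% and 18.5% of the 3897 genes tested. The medians were -0.078 for all members, -0.11 head (Med20 alone), -0.080 middle and 0.066 kinase (Med12, Med13 and Cdk8). With no further scaling 3 members were higher and 6 lower, beside 16.6% and 18.7% of all genes tested. The medians were then -0.033 for all members, -0.029 head, -0.058 middle, -0.0050 tail and -0.11 kinase. The head median was also below 0 without a filter (-0.0049), with upper-quartile scaling (-0.0018) and with voom and the replicate block (-0.010). Without a filter the median of all members was -0.028. With pseudocounts of 0.1 and 1 the middle median was -0.044 and -0.022 and the kinase median -0.093 and -0.066. With voom these were -0.067 and -0.093, and with voom and the replicate block -0.066 and -0.094. Leaving out 1 library moved the median of all members between -0.031 and -0.011, head between -0.012 and 0.013, middle between -0.045 and 0.014, tail between -0.073 and 0.044 and kinase between -0.10 and -0.052. The causes were not tested.

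Members near 0 changed sign: without further scaling Med4 (-0.028), Med17 (-0.029) and Med24 (-0.0050), with upper-quartile scaling Med17 (-0.0018), and with voom and the replicate block Med4 (-0.0018) and Med29 (-0.010). Over the libraries left out in turn, Med4 ran from -0.032 to 0.048, Med8 from -0.031 to 0.18, Med16 from -0.095 to 0.19, Med17 from -0.0028 to 0.013, Med18 from -0.12 to 0.062, Med19 from -0.038 to 0.13, Med22 from -0.061 to 0.27, Med25 from -0.0095 to 0.32, Med29 from -0.056 to 0.15, Med30 from -0.076 to 0.047 and Med31 from -0.11 to 0.048. Taking the reads of Gm6654 off Med21, an alternative chosen after seeing the data, gave -1.03 in place of -0.50.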
